A study of Mus musculus with 6 samples.

Results

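The 35 genes described here encode the nuclear subunits of the last steps of mitochondrial respiration. They comprise 9 subunits of complex III (ubiquinol-cytochrome c reductase), the electron carrier cytochrome c, 10 subunits of complex IV (cytochrome c oxidase) and 15 genes of ATP synthase. They were chosen by name, and each of the 35 had 1 row among the 24885 of the count table. Expression had been measured by 3' RNA-seq, in which oligo-dT primed reads fall at the 3' end of polyadenylated transcripts, in mouse Eµ-Myc B-cell lymphoma cells. In these tumours a Myc transgene is driven by the immunoglobulin heavy chain enhancer. Both groups derived from cells with this transgene, a tamoxifen-inducible Cre-ERT2 recombinase and the miR-17~92 microRNA cluster flanked by loxP sites. The del group (3 libraries, genotype del17-92) came from cells that had been treated with 250 nM 4-hydroxytamoxifen and then subcloned to obtain cells lacking the cluster, and the fl group (3 libraries, genotype floxed) kept the floxed alleles. All cells had grown for 48 hours on irradiated feeder fibroblasts from Ink4a-null mice. Nothing in the labels tells if a group's 3 libraries were separate cultures or clones, and p-values therefore reflect only how far these particular libraries vary, possibly for technical reasons. Deletion, treatment and subcloning cannot be told apart in this design.

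Complex III takes electrons from ubiquinol and hands them to cytochrome c, and complex IV passes them on to oxygen. Complexes III and IV move protons across the inner mitochondrial membrane as they do so, and ATP synthase lets the protons flow back through its rotating c ring to make ATP. The catalytic core of complex IV, the cytochrome b of complex III and the proton channel of ATP synthase are encoded by mitochondrial DNA and were not analysed here, so the subunits below are those that nuclear genes supply. MYC is known to raise many nuclear genes of mitochondrial function, and the question the series title poses concerns metabolism in these tumours.

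The libraries held 2121796 to 3738720 counts in del and 6554423 to 9580630 counts in fl, so depth and group go together. Of 10260 genes tested, 6676 (65.1%) had an adjusted p under 0.05, 3343 of them lower in del (32.6%) and 3333 higher. Adjusted p-values are from the quasi-likelihood test of edgeR, with the Benjamini-Hochberg method applied over all tested genes. Levels are CPM, which scale a gene's counts to a fixed library total after TMM normalization. Marker genes of cell types differed between the groups. The B cell markers summed to 1279 to 1478 CPM in del and 58.1 to 68.5 CPM in fl (10 of 10 tested members higher in del), with Ms4a1 at no more than 2 counts in any library. The fl libraries were therefore low in markers of the labelled lineage. Myeloid markers summed to 2139 to 2196 CPM in del and 504 to 543 CPM in fl (8 of 9 higher, Cebpa at 0 throughout), and epithelial markers to 0.474 to 1.32 CPM in del and 371 to 411 CPM in fl (3 of 3 lower, Cdh1 at 0 throughout). Fibroblast markers, which feeder cells would carry, summed to 13.4 to 33.2 CPM in del and 1.38 to 8.21 CPM in fl (2 of 3 higher, Lum at 0 throughout). T and NK cell markers summed to 99.0 to 120.1 CPM in del and 38.5 to 42.7 CPM in fl (2 of 3 tested members lower and 1 higher, with Cd3e, Cd8a, Ncr1 and Nkg7 at 0 throughout). Most of the del sum came from Cd2, at 438, 201 and 383 raw counts in del and 145, 98 and 80 in fl. Cd5 had 17, 8 and 6 raw counts in del and 187, 208 and 172 in fl. Lck had 0 in every del library and 24, 23 and 30 in fl. The part of these cell type differences in the results below was not tested, and in bulk RNA fewer cells of a type and less RNA per cell cannot be told apart.

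Transcripts of the respiratory subunits were lower in del cells. Of the 35 genes, all of which were expressed highly enough to be tested, 33 fell, none rose and 2 (Cox5a and Atp5h) did not pass, where 32.6% of all tested genes fell. The median log2 fold change (del minus fl) was -0.81, against -0.0034 over all tested genes, and the fold changes ran from -1.94 for Cox7c to 0.13 for Cox5a. For the same 33 genes every del library lay below every fl library, as 35.7% of all tested genes did, and 11 fell by at least 2-fold, as 15.9% of all tested genes did. Complex III had the lowest median at -1.13 with 9 of 9 genes lower, followed by complex IV at -0.81 with 9 of 10 lower and ATP synthase at -0.76 with 14 of 15 lower. These differences between the complexes were not tested.

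**Figure D1:**
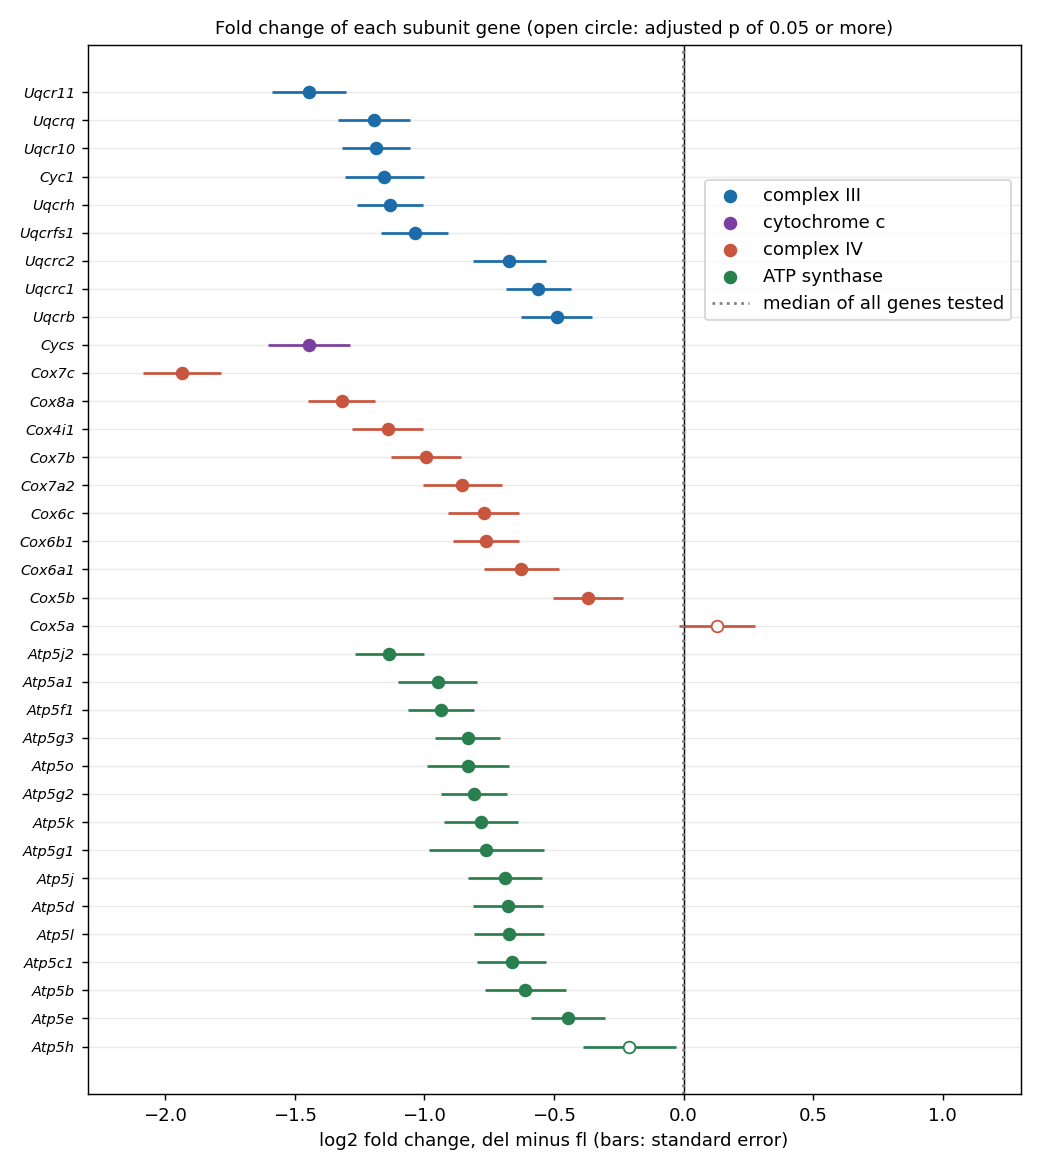
Log2 fold change (del minus fl, x axis) of each subunit gene with its standard error, sorted within complex III (blue), cytochrome c (purple), complex IV (red) and ATP synthase (green), with open circles for genes that did not pass. The 33 filled circles lie left of 0, and the open circles are Cox5a at 0.13 and Atp5h at -0.21.

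Together the 35 genes took 1.01%, 0.957% and 0.945% of the raw counts in the del libraries, against 1.60%, 1.71% and 1.71% in the fl libraries, so no del library reached any fl library. These shares depend on no scaling factor, and their Wilson 95% intervals, which cover counting error only, were at most 0.0262 percentage points wide. The share of complex III was 0.167% ± 0.00788 in del and 0.319% ± 0.0141 in fl, that of complex IV 0.291% ± 0.0159 in del and 0.502% ± 0.0227 in fl and that of ATP synthase 0.479% ± 0.0108 in del and 0.763% ± 0.0359 in fl (SD, n = 3 each). The del shares were 0.524, 0.580 and 0.628 times the fl shares of complex III, complex IV and ATP synthase.

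**Figure D2:**
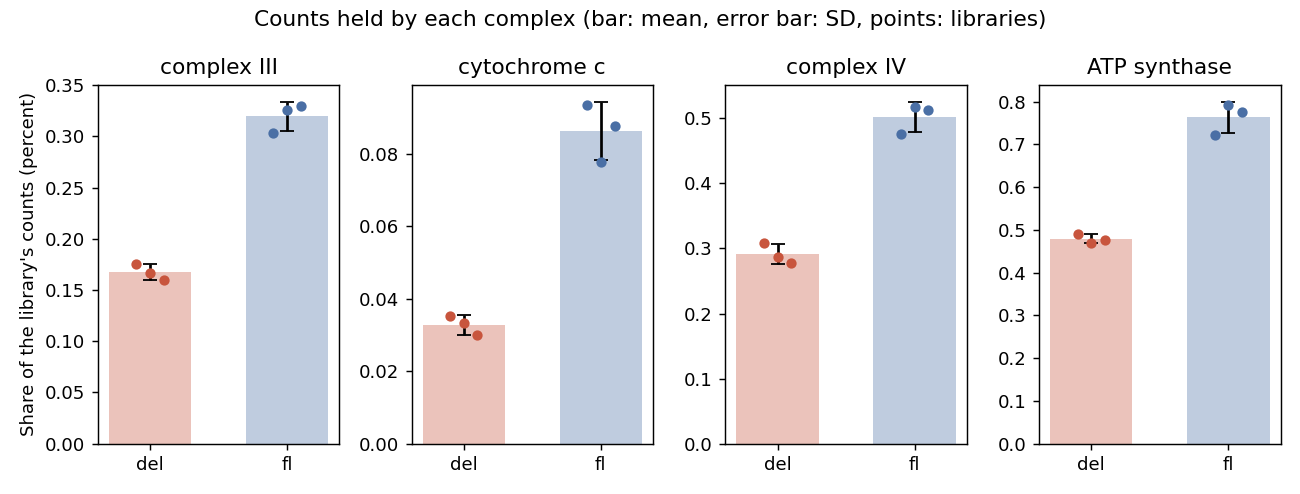
Share of each library's raw counts (percent, y axis from 0) held by the genes of complex III, cytochrome c, complex IV and ATP synthase in del and fl, with bars for the mean, error bars for the SD and points for the 3 libraries of a group. In each panel the del points lie below the fl points, with ATP synthase at 0.479% in del and 0.763% in fl.

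In complex III, the subunits that carry electrons fell by about the same amount. Cyc1 (cytochrome c1, which passes electrons to cytochrome c) stood at 111, 112 and 85.4 CPM in the del libraries, against 248, 219.8 and 219 CPM in the fl libraries. Uqcrfs1 (the Rieske iron-sulfur protein) stood at 125, 126 and 109.8 CPM in the del libraries, against 246, 239 and 255 CPM in the fl libraries. Neither gene's groups overlapped, and the log2 fold changes were -1.15 ± 0.15 for Cyc1 (adjusted p = 0.000162) and -1.04 ± 0.13 for Uqcrfs1 (adjusted p = 0.000116). The core proteins, which form the matrix-facing base of the complex, changed less. Uqcrc1 averaged 116 ± 8.14 CPM in del and 172 ± 4.76 CPM in fl (log2 fold change -0.56 ± 0.13, adjusted p = 0.00363), and Uqcrc2 averaged 263 ± 26.3 CPM in del and 419 ± 26.9 CPM in fl (log2 fold change -0.67 ± 0.14, adjusted p = 0.00241). Throughout, mean CPM are given ± SD (n = 3 each) and log2 fold changes ± standard error.

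Of the small subunits of complex III, 4 of 5 fell by at least 2-fold, as 15.9% of all tested genes did. Uqcr11 was at 135, 129 and 108 CPM in the del libraries, against 320.0, 352 and 343 CPM in the fl libraries (log2 fold change -1.45 ± 0.14, adjusted p = 2.93e-05), which was the largest fall of the complex. Uqcrh, the hinge protein at the docking face for cytochrome c, was at 326, 309.8 and 304 CPM in the del libraries, against 715, 666 and 678 CPM in the fl libraries (log2 fold change -1.13 ± 0.13, adjusted p = 6.06e-05). In both genes every del library was below every fl library. Uqcrq averaged 198 ± 6.78 CPM in del and 452 ± 42.5 CPM in fl (log2 fold change -1.19 ± 0.14, adjusted p = 7.33e-05) and Uqcr10 averaged 139 ± 8.12 CPM in del and 316 ± 13.5 CPM in fl (log2 fold change -1.19 ± 0.13, adjusted p = 5.29e-05). Uqcrb, the subunit near the ubiquinone-binding site, fell least. It was at 291, 273 and 262 CPM in the del libraries, against 419, 351 and 390.1 CPM in the fl libraries (log2 fold change -0.49 ± 0.14, adjusted p = 0.0112). The ratio of Uqcrb to Uqcr11 counts within a library was 2.15, 2.11 and 2.41 in the del libraries, against 1.31, 0.996 and 1.14 in the fl libraries. These extremes were picked for their difference, so the ratio is given as a description.

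Cycs, which encodes somatic cytochrome c (chromosome 6, 50562563 to 50566569 in GRCm38), had one of the largest falls. It stood at 347, 334 and 290.3 CPM in the del libraries, against 1028, 775 and 843 CPM in the fl libraries (log2 fold change -1.45 ± 0.16, adjusted p = 4.96e-05). All 3 del libraries lay within 290.3 to 347 CPM, all below the lowest fl library, whereas fl replicate 1 was above the other fl libraries. The testis form Cyct had 1 count over the del libraries and 2 over the fl libraries, too few for a test.

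Complex IV held both the lowest and the highest fold change of the 35 genes. Cox7c (chromosome 13, 86044798 to 86046795) stood at 42.9, 37.4 and 36.0 CPM in the del libraries, against 144, 136 and 166 CPM in the fl libraries (log2 fold change -1.94 ± 0.15, adjusted p = 7.08e-06), a level 26.1% of that in fl. Cox8a (the ubiquitous form of subunit VIII) was at 322, 309 and 290.1 CPM in the del libraries, against 764, 785 and 751 CPM in the fl libraries (log2 fold change -1.32 ± 0.13, adjusted p = 2.62e-05). Cox4i1, the ubiquitous form of the regulatory subunit IV, was at 346, 351 and 302 CPM in the del libraries, against 786, 706 and 710.2 CPM in the fl libraries (log2 fold change -1.14 ± 0.14, adjusted p = 8.42e-05). In each of these 3 genes the groups did not overlap. Cox7b averaged 281 ± 14.8 CPM in del and 560.0 ± 40.6 CPM in fl (log2 fold change -0.99 ± 0.13, adjusted p = 0.000183), and Cox7a2 averaged 268 ± 41.3 CPM in del and 484 ± 19.1 CPM in fl (log2 fold change -0.85 ± 0.15, adjusted p = 0.000915). The subunit VI genes fell by a smaller amount, with Cox6c at -0.77 ± 0.14, Cox6b1 at -0.76 ± 0.13 and Cox6a1 at -0.63 ± 0.14 on the log2 scale (adjusted p = 0.000915, 0.000632 and 0.00385 in that order). In an alternative fit, which took out how counts in each library varied with the length and GC content of transcripts (the length and GC trend), 1 of 3 subunit VI genes, Cox6c, was still called. Among all tested genes 32.6% fell in that fit. That fit used the longest transcript of each gene. The transcript of median length was used instead in an alternative added after the data were seen. There Cox6c and Cox6b1 were called (adjusted p = 0.0135 and 0.000756), and Cox6a1 was not (adjusted p = 0.076). Cox6b1 is the subunit on the intermembrane side where cytochrome c approaches, and it averaged 278 ± 8.51 CPM in del and 472 ± 15.0 CPM in fl. Cox6c averaged 548 ± 35.1 CPM in del and 935 ± 97.3 CPM in fl, and Cox6a1 averaged 309 ± 26.5 CPM in del and 477 ± 46.5 CPM in fl.

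Of the subunit V genes, Cox5a did not pass, and Cox5b fell least of the complex IV genes that did. Their difference from the other genes of the complex was not tested. Cox5a was at 375, 383 and 309.5 CPM in the del libraries, against 341, 296 and 338 CPM in the fl libraries (log2 fold change 0.13 ± 0.15, adjusted p = 0.455), and the 2 groups overlapped, with del replicate 3 inside the range of the fl libraries. Cox5b was at 149.8, 148 and 176 CPM in the del libraries, against 216, 191 and 205 CPM in the fl libraries (log2 fold change -0.37 ± 0.14, adjusted p = 0.0371). Its groups did not overlap, but the call was lost with 5 of the 6 single libraries left out and under other settings given in the closing section. Within a library, the ratio of Cox5a to Cox7c counts was 8.74, 10.2 and 8.61 in the del libraries, against 2.36, 2.18 and 2.04 in the fl libraries. That ratio uses the least and the most lowered of the 35 genes. It is given to compare libraries and not as the relative level of the genes.

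**Figure D3:**
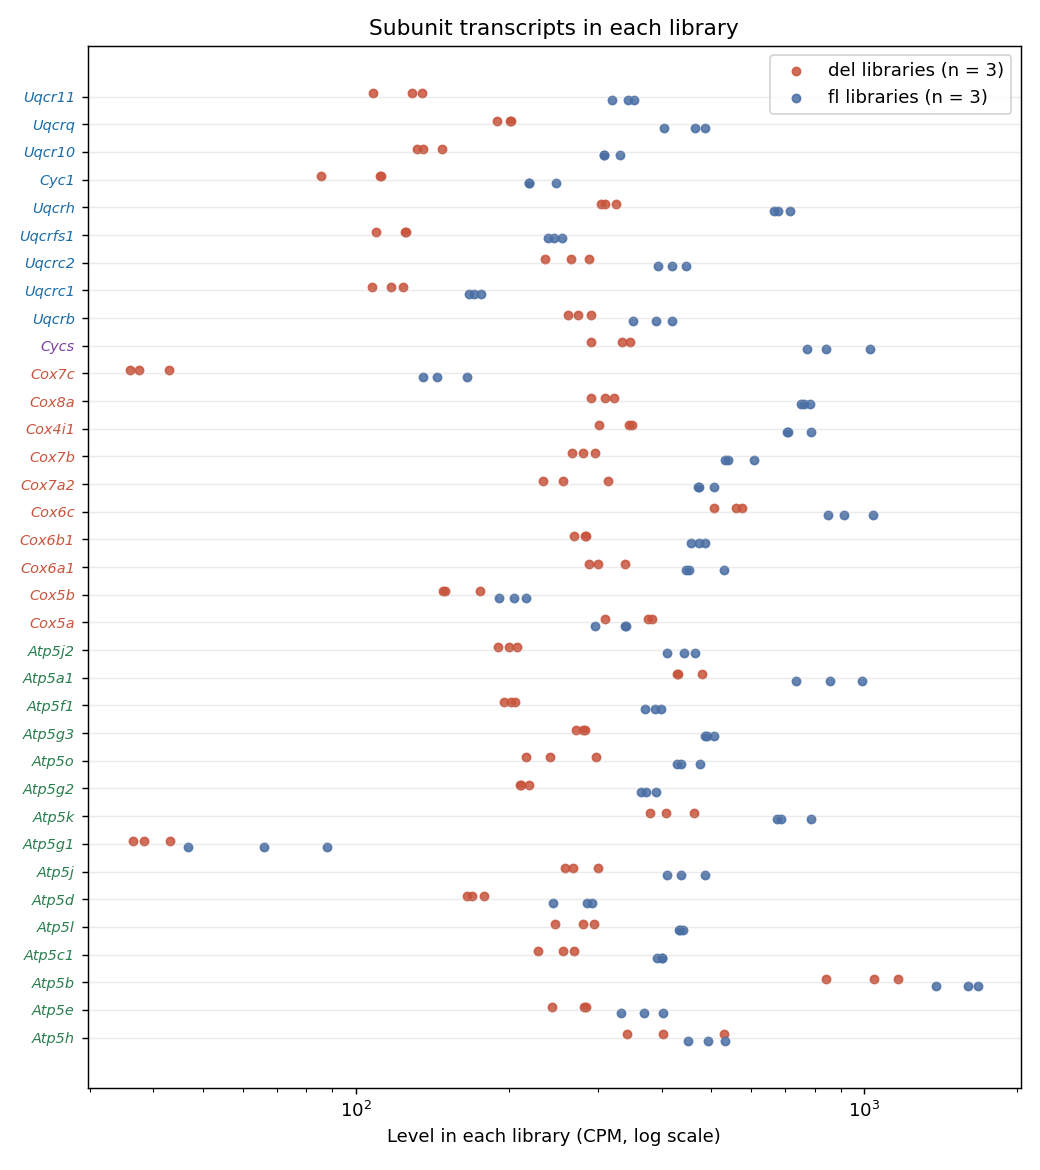
Level of each subunit gene in each library (CPM, log scale, x axis), with del libraries in red and fl libraries in blue and genes grouped by complex. Every del point lies left of the fl points of its gene except for Cox5a (356 CPM in del and 325 CPM in fl on average) and Atp5h.

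In ATP synthase, the F1 head and central stalk fell in 5 of 5 genes, with log2 fold changes of -0.95 to -0.45. Among all tested genes 32.6% fell, as did 75.7% of the 305 other genes of at least 100 CPM and at most 1500 nt. Atp5b (the catalytic beta subunit, chromosome 10, 128083307 to 128090388) was at 1048, 1167 and 841 CPM in the del libraries, against 1678, 1601 and 1384 CPM in the fl libraries (log2 fold change -0.61 ± 0.16, adjusted p = 0.00729). Atp5a1 (the alpha subunit) was at 430.1, 429 and 480.4 CPM in the del libraries, against 736, 992 and 858 CPM in the fl libraries (log2 fold change -0.95 ± 0.15, adjusted p = 0.000473). Both were below fl in every del library, with the fl libraries of Atp5a1 spread more widely than its del libraries. Atp5c1 (the gamma subunit, the rotating shaft) averaged 251 ± 20.9 CPM in del and 398 ± 4.80 CPM in fl (log2 fold change -0.66 ± 0.13, adjusted p = 0.00186), Atp5d (delta) averaged 171 ± 6.80 CPM in del and 274 ± 25.6 CPM in fl (log2 fold change -0.68 ± 0.14, adjusted p = 0.00179), and Atp5e (epsilon) averaged 269.6 ± 22.6 CPM in del and 368 ± 35.1 CPM in fl (log2 fold change -0.45 ± 0.14, adjusted p = 0.0209). The call of Atp5e was lost without del replicate 2 (adjusted p = 0.0667) and without fl replicate 2 (adjusted p = 0.0905). It was also lost with the length and GC trend removed (-0.04, adjusted p = 0.808) and with the transcript of median length (-0.26, adjusted p = 0.129). With that trend removed 1 of 5 genes of the head and central stalk, Atp5a1, was still called, and their median was -0.24. In that fit 32.6% of all tested genes fell, so the count is not above the background. With the transcript of median length Atp5a1, Atp5b, Atp5c1 and Atp5d were called (adjusted p = 0.00013, 0.00554, 0.00874 and 0.0466 in that order).

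The peripheral stalk, which holds the F1 head still against the rotor, fell in 3 of 4 genes, and in 1 of 4, Atp5f1, with the length and GC trend removed. Among all tested genes 32.6% fell in either fit. Without trend removal 75.7% of the other genes of at least 100 CPM and at most 1500 nt fell. The counts are near these shares and are no result about the stalk as a group. With the transcript of median length Atp5f1, Atp5j and Atp5o were called and Atp5h was not. Atp5f1 (subunit b) was at 206, 196 and 202 CPM in the del libraries, against 399, 371 and 388 CPM in the fl libraries (log2 fold change -0.94 ± 0.13, adjusted p = 0.000191). Atp5o (the oligomycin sensitivity conferring protein) averaged 251 ± 41.0 CPM in del and 447 ± 25.3 CPM in fl (log2 fold change -0.83 ± 0.16, adjusted p = 0.00126), and Atp5j (coupling factor F6) averaged 275 ± 22.4 CPM in del and 444 ± 39.5 CPM in fl (log2 fold change -0.69 ± 0.14, adjusted p = 0.0021). Atp5h (subunit d) was at 402, 342 and 531 CPM in the del libraries, against 493, 533 and 451 CPM in the fl libraries (log2 fold change -0.21 ± 0.18, adjusted p = 0.327). Its groups overlapped because del replicate 3 reached the level of the fl libraries, while the other two del libraries were lower than all of them. Without del replicate 3 its log2 fold change was -0.40 (adjusted p = 0.053). Of the membrane subunits, Atp5j2 (subunit f) had the largest fall among the 15 ATP synthase genes at 201, 191 and 208 CPM in the del libraries, against 465, 443 and 409.8 CPM in the fl libraries (log2 fold change -1.14 ± 0.13, adjusted p = 7.81e-05). Atp5k (subunit e) averaged 417 ± 43.1 CPM in del and 717 ± 62.2 CPM in fl (log2 fold change -0.78 ± 0.14, adjusted p = 0.00104) and Atp5l (subunit g) averaged 274 ± 24.5 CPM in del and 437 ± 4.46 CPM in fl (log2 fold change -0.68 ± 0.14, adjusted p = 0.00179). Subunits e and g are known to help ATP synthase dimers bend the cristae.

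The c ring is made from a single mature protein that 3 genes encode with different import sequences. Atp5g1 was at 43.2, 36.5 and 38.4 CPM in the del libraries, against 87.9, 46.8 and 66.1 CPM in the fl libraries (log2 fold change -0.76 ± 0.22, adjusted p = 0.0138). Atp5g2 was at 211, 219.8 and 212 CPM in the del libraries, against 389, 364 and 373 CPM in the fl libraries (log2 fold change -0.81 ± 0.13, adjusted p = 0.000435). Atp5g3 was at 282, 279 and 272 CPM in the del libraries, against 491, 488 and 508 CPM in the fl libraries (log2 fold change -0.83 ± 0.13, adjusted p = 0.000354). The 3 log2 fold changes lay within their standard errors of each other, and the fl libraries of Atp5g1 were the most scattered of the 3, with fl replicate 2 close to the del libraries. With the length and GC trend removed they lay apart: Atp5g1 was at -1.20 (adjusted p = 0.000984), Atp5g2 at 0.00154 (adjusted p = 0.993) and Atp5g3 at -0.26 (adjusted p = 0.11). Only the Atp5g1 call was kept there. With the transcript of median length Atp5g1 lost its call (-0.46, adjusted p = 0.0996), and Atp5g2 and Atp5g3 were called. Of the counts of the 3 genes in a library, Atp5g1 held 8.05%, 6.81% and 7.35% in the del libraries, against 9.08%, 5.21% and 6.99% in the fl libraries. Atp5g2 held 39.3%, 41.0% and 40.5% in the del libraries, against 40.2%, 40.5% and 39.4% in the fl libraries. Atp5g3 held 52.6%, 52.2% and 52.1% in the del libraries, against 50.7%, 54.3% and 53.6% in the fl libraries. The mean share of Atp5g1 was 7.40% ± 0.623 in del and 7.09% ± 1.94 in fl, a difference of 0.312 percentage points (SD, n = 3 each). No difference in the shares was detectable: the differences for Atp5g1, Atp5g2 and Atp5g3 gave p = 0.9, 0.7 and 0.6 by the exact two-sided permutation test over libraries, 0.9 for each after Benjamini-Hochberg adjustment over the 3. With 3 libraries against 3 this test cannot give a p under 0.1.

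The promoters of these genes were searched for letters they share. RefSeq windows (GRCm38.p6, 250 bases before the transcription start to 50 after it) were matched for 28 of the 35 genes. Short motifs were searched as exact letters on both strands. The NRF1 motif GCATGCGC, named for nuclear respiratory factor 1, lay in 7 of 28 subunit genes (25%), against 6.53% of the tested genes with a window and 2.71% of all windows. The ETS core CGGAAG, which GABP and other ETS factors recognise, lay in 17 of 28 subunit genes (60.7%), against 39.0% of the tested genes with a window and 16.9% of all windows, and its longer form CCGGAAGT, which contains the core, in 4 of 28 subunit genes (14.3%), against 10.4% of the tested genes with a window and 3.89% of all windows. The MYC and MAX E-box CACGTG lay in 4 of 28 subunit genes (14.3%), against 12.4% of the tested genes with a window and 7.15% of all windows. The YY1 letters AAGATGGC lay in 3 of 28 subunit genes (10.7%), against 5.94% of the tested genes with a window and 2.75% of all windows. The GC box GGGCGG lay in 9 of 28 subunit genes (32.1%), against 69.9% of the tested genes with a window and 35.7% of all windows. These shares are descriptions, and a match is not a bound site.

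The windows of the gene with the smallest adjusted p in each complex, and of Cycs, are shown to place these letters, 5′ to 3′ on the strand of the gene, with the searched motifs in capitals. In Uqcr11 the NRF1 letters begin at base 247 of the window and the ETS letters at base 185. In Cycs the NRF1 letters begin at base 191 and the GC box at base 282. In Atp5j2 the ETS core begins at base 129 on the opposite strand and the YY1 letters at base 274. Cox7c, the gene with the largest fall, had none of the searched letters in its window.
Uqcr11 (chr10:80406772-80407071, minus strand): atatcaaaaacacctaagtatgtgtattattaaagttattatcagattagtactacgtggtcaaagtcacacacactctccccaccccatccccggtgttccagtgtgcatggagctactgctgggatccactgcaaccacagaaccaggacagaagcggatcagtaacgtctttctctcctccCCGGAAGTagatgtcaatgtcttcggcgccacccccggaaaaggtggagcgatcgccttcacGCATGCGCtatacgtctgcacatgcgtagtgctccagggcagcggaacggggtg
Cycs (chr6:50566520-50566819, minus strand): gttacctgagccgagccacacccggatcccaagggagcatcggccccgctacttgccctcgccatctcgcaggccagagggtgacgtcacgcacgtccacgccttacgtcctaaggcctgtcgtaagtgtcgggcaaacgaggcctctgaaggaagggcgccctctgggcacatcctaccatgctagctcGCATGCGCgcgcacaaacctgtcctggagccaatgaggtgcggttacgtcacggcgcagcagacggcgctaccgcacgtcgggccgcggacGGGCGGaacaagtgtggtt
Cox7c (chr13:86046746-86047045, minus strand): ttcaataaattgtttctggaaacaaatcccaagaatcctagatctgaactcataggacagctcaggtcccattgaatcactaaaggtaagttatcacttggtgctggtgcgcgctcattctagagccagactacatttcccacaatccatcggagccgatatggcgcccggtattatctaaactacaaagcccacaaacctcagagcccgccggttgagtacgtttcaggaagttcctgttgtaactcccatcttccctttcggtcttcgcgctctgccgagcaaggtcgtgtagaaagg
Atp5j2 (chr5:145191492-145191791, minus strand): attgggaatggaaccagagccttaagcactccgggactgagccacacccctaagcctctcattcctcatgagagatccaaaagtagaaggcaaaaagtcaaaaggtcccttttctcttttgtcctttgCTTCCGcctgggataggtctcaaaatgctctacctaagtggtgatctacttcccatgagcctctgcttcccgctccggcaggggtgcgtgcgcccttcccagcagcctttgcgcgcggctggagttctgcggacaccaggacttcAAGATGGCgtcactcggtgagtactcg

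Transcript length moved with the fold changes, and most of the subunit transcripts are short. Their longest annotated transcripts had a median of 1001 nt, against 3399 nt over all tested genes, and 20 of the 35 were of at most 1500 nt. All but 2 averaged at least 100 CPM over the 6 libraries. Among the 1796 other tested genes of at least 100 CPM, 37.3% fell. Among the 305 other genes that were both at least 100 CPM and at most 1500 nt, 231 (75.7%) fell, with a median log2 fold change of -0.84 that lay close to the -0.81 of the subunits. The size of the fall was thus shared with other abundant short transcripts, and the count of 33 is to be read beside that share. The share covers longest transcripts of at most 1500 nt, as 20 of the 35 genes had. No share for longer abundant genes alone is given here.

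**Figure D4:**
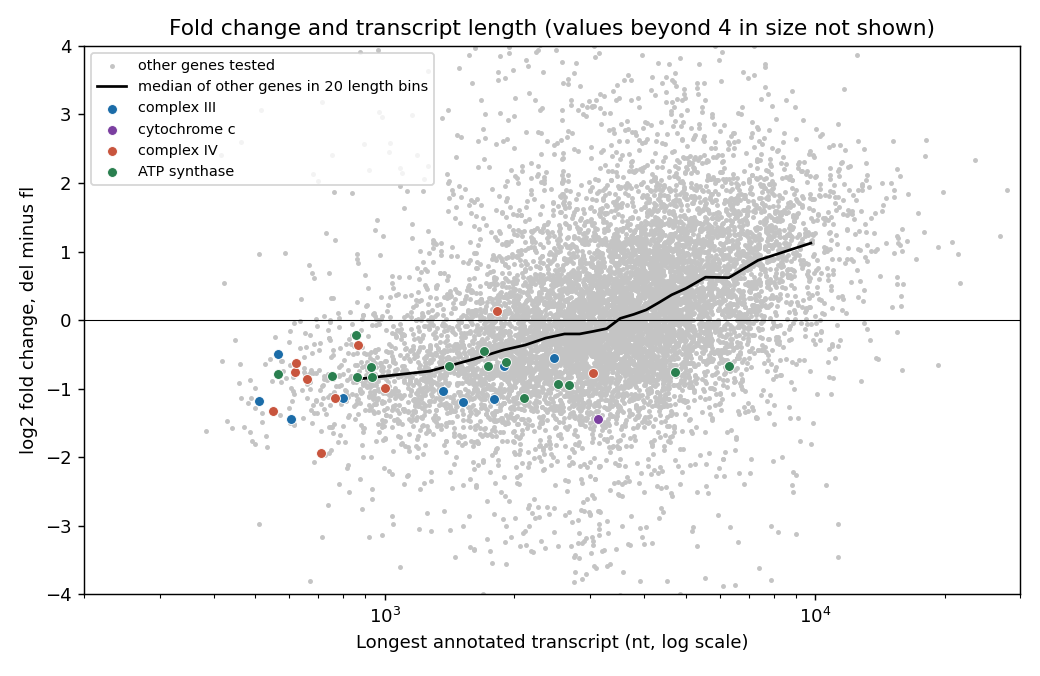
Log2 fold change (del minus fl, y axis) against the longest annotated transcript (nt, log scale, x axis) for the subunit genes, coloured by complex, and for the other tested genes in grey, with the median of the other genes in 20 length bins as a line. The line climbs with length, and most subunit genes lie at lengths where it is below 0.

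With the trend of each library on transcript length and GC content removed, 19 of the 35 genes still fell, none rose, and the median was -0.42. In that fit 32.6% of all tested genes fell with a median of -0.09, and 42.3% of the 305 other abundant short transcripts fell with a median of -0.24. Cycs was at -1.64 and Cox7c at -1.60. In complex III 8 of 9 genes remained called, all but Uqcrb (-0.11, adjusted p = 0.494), with a median of -0.57. Complex IV kept calls for 5 of 10 genes (median -0.33) and ATP synthase for 5 of 15 (median -0.26). The ATP synthase count was near the 32.6% of all tested genes, and its median was near that of the other abundant short transcripts. The longest annotated transcript need not be the expressed one, and that of Atp5l was 6310 nt. With the protein-coding transcript of median length in its place, an alternative added after the data were seen, 28 of the 35 genes fell and the median was -0.69, where 35.2% of all tested genes fell with a median of -0.11. Cycs was then at -2.00 and Cox7c at -1.98. The 5 calls lost there were those of Uqcrc1, Cox5b, Cox6a1, Atp5e and Atp5g1. Complex IV and ATP synthase thus kept most of their calls in that fit. The share of the other abundant short transcripts that fell there was not computed, so these calls cannot be set beside it.

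**Figure D5:**
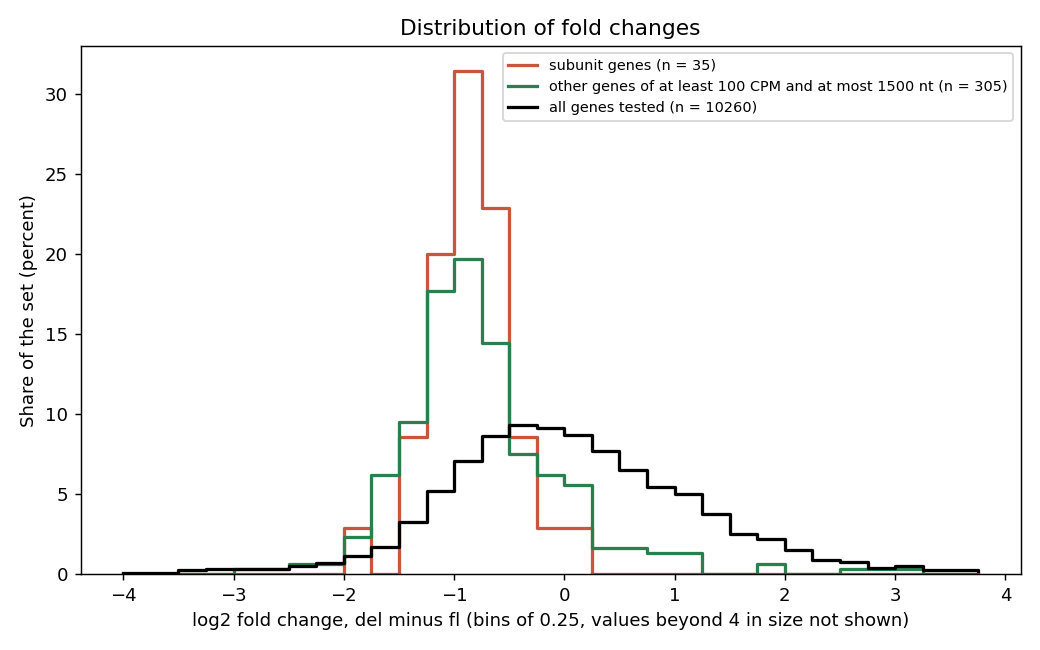
Share of genes (percent, y axis) by log2 fold change (del minus fl, bins of 0.25, x axis) for the 35 subunit genes in red, the 305 other genes of at least 100 CPM and at most 1500 nt in green and all 10260 tested genes in black. The red and green outlines peak at like values, with medians of -0.81 and -0.84, left of the black outline at -0.0034.

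Genes for assembly factors of these complexes were tested too, where 32.6% of all tested genes fell and 75.7% of the other abundant short transcripts did. The latter share covers genes of at least 100 CPM, and several genes named below, such as Atpaf1 and Bcs1l, averaged less in both groups. For ATP synthase 5 of 5 tested assembly genes fell (median -1.07), led by Fmc1 at 33.4, 27.9 and 23.5 CPM in the del libraries, against 103, 89.7 and 106 CPM in the fl libraries (log2 fold change -1.81 ± 0.16, adjusted p = 1.84e-05), with Tmem242 at -1.22 ± 0.15, Atpaf1 at -1.07 ± 0.14 and Tmem70 at -0.999 ± 0.14. For complex IV 19 of 27 fell and 1 rose (median -0.61). Slirp, which with its partner LRPPRC stabilises mitochondrial mRNAs, was at -1.36 ± 0.16, Higd1a at -1.20 ± 0.15, Coa6 at -1.23 ± 0.18 and Cmc2 at -1.03 ± 0.14. The gene that rose was Sco1, a copper chaperone of complex IV, at 44.8, 55.9 and 21.4 CPM in the del libraries, against 11.2, 9.40 and 11.6 CPM in the fl libraries (log2 fold change 1.89 ± 0.31, adjusted p = 0.000667), where del replicate 3 was lower than the other del libraries but above all fl libraries. For complex III 2 of 6 fell, a share near that of all tested genes, with Uqcc3 at -1.13 ± 0.19 and Uqcc2 at -0.54 ± 0.16, and Uqcc1 (log2 fold change -0.53 ± 0.22, adjusted p = 0.058) and Bcs1l (log2 fold change -0.46 ± 0.19, adjusted p = 0.0629) did not pass. Of 5 genes for heme synthesis and attachment, including Hccs, which attaches heme to cytochrome c, none passed (median -0.10). Hccs averaged 56.8 ± 2.12 CPM in del and 60.6 ± 5.68 CPM in fl (adjusted p = 0.537), and Fech, Alas1 and Cox15 had adjusted p = 0.0604, 0.069 and 0.0952. Cox10 and Cox15 are also counted among the complex IV assembly genes.

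Outside the 35 genes, 9 genes of other subunits, isoforms and related proteins were tested, of which 7 fell and 2 rose. Among all tested genes 32.6% fell, and among the other abundant short transcripts 75.7% did. Atp5md, which encodes a small ATP synthase protein, fell more than any of the 35, to 267, 265 and 291 CPM in the del libraries, against 1149, 1225 and 1109 CPM in the fl libraries (log2 fold change -2.08 ± 0.13, adjusted p = 2.2e-06). Cox7a2l, which links complexes III and IV in supercomplexes, averaged 137 ± 18.9 CPM in del and 348 ± 4.76 CPM in fl (log2 fold change -1.34 ± 0.15, adjusted p = 5.29e-05). Atpif1, the inhibitor of ATP hydrolysis by the enzyme, averaged 322 ± 39.8 CPM in del and 604 ± 42.6 CPM in fl (log2 fold change -0.91 ± 0.15, adjusted p = 0.000535). The genes that rose were Cox6a2, the heart and muscle form of subunit VIa, which was still only at 2.97 ± 0.313 CPM in del and 0.649 ± 0.0545 CPM in fl (log2 fold change 2.13 ± 0.35, adjusted p = 0.000543), and Dmac2 at 0.74 ± 0.16. Other tissue forms were nearly silent: Cox4i2 had 2 counts over the del libraries and 0 over the fl libraries, and Cox6b2, Cox7b2, Cox8b and Cox8c had 0 in every library. A count of 0 is compatible with up to 3 counts per library. Cox7a1, the muscle form of subunit VIIa, named after its values were seen, had 12, 3 and 17 counts in the del libraries, against 46, 65 and 37 in the fl libraries. These raw counts are not scaled for depth, and every fl library was deeper than every del library.

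Genes of neighbouring steps are given beside the same backgrounds, 32.6% of all tested genes and 75.7% of the other abundant short transcripts falling. Of complex I genes 33 of 35 tested genes fell and none rose (median -0.96), led by Ndufb8 at -1.57 ± 0.13, Ndufa11 at -1.23 ± 0.13, Ndufv2 at -1.24 ± 0.13 and Ndufv1 at -1.47 ± 0.16. Of complex II 3 of 4 fell, with Sdhb at -0.82 ± 0.15, Sdhd at -0.76 ± 0.15 and Sdhc at -0.65 ± 0.13, while Sdha did not pass (log2 fold change -0.25 ± 0.16, adjusted p = 0.193). The carriers that exchange ADP, ATP and phosphate with the cytosol fell in 3 of 3 genes. Slc25a3, the phosphate carrier, was at -0.91 ± 0.13 and Slc25a5 at -0.77 ± 0.13. Slc25a4 was at 297, 257 and 269 CPM in the del libraries, against 1428, 440.0 and 462 CPM in the fl libraries (log2 fold change -1.50 ± 0.42, adjusted p = 0.0118), with fl replicate 1 far above the other fl libraries. Of 7 genes of outer membrane channels and general mitochondrial content 5 fell and none rose (median -0.59). Tomm20, an import receptor, was at -1.61 ± 0.13, the channel genes Vdac2 and Vdac3 at -1.29 ± 0.16 and -0.85 ± 0.16, and Chchd3 at -0.59 ± 0.14.

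Of 12 tested transcription regulators of respiratory genes, 3 fell, 2 rose and 7 did not pass (median -0.02). These counts are no higher than the background, in which 32.6% of all tested genes fell and 3333 of 10260 rose, so they are no result about the regulators as a group. Ppargc1b, a coactivator of mitochondrial genes related to PGC-1 alpha, was at 37.7, 42.6 and 47.3 CPM in the del libraries, against 12.5, 10.5 and 8.50 CPM in the fl libraries (log2 fold change 2.01 ± 0.18, adjusted p = 1.52e-05). Gabpb2, a beta subunit gene of the ETS factor GABP, averaged 225 ± 76.1 CPM in del and 68.6 ± 21.1 CPM in fl (log2 fold change 1.71 ± 0.29, adjusted p = 0.000754). Gabpb1 averaged 15.5 ± 0.920 CPM in del and 28.2 ± 7.27 CPM in fl (log2 fold change -0.85 ± 0.21, adjusted p = 0.00534). Gabpa, the DNA-binding subunit of GABP, was at 33.7, 35.1 and 33.0 CPM in the del libraries, against 53.5, 52.0 and 58.2 CPM in the fl libraries (log2 fold change -0.69 ± 0.13, adjusted p = 0.00116). Exons of Gabpa overlap those of Atp5j on the opposite strand, and Atp5j had a log2 fold change of -0.69 ± 0.14. The libraries were made strand-specifically, but the sources used here do not give the strand setting of the counting, so reads in such overlaps cannot be told apart. Exons of 11 of the 35 genes overlap a gene on the opposite strand. In addition, 15 annotated pseudogenes are named after 8 of the 35 genes and none of them has a row in the table. The treatment of reads that match such copies is likewise not stated, and the levels of these genes are uncertain to that extent.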

How the data were processed

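The authors deposited 1 table of whole-number read counts with 24885 gene rows and 6 library columns, named as such per the file headers. Of these, 24052 carry a gene number, and 23969 of the numbers matched a symbol in the RefSeq gene table of GRCm38. STAR, HTSeq and mm10 are named in the submitters' processing notes, without versions; the sources used here do not give their settings. Genes kept by filterByExpr were tested with edgeR 4.0.16 under R 4.3.3 (TMM factors, robust quasi-likelihood test, group as the only term, adjusted p under 0.05). Standard errors were derived from the F statistic. Since 3' reads give about one position per transcript, CPM were not divided by length. Count ratios and shares between genes compare libraries only, not the genes' levels. Lengths and GC content came from GENCODE M21 transcripts (GRCm38). The members and lists were chosen with earlier results of these data known. From each list up to 4 genes with the smallest adjusted p, and up to 2 called against its majority, were named. DESeq2 1.42.0 was an alternative. The fit was tested on simulated data. Replicates of a group differed by more than sampling noise (chi-square per degree of freedom 7.35 to 30.5).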

Additional observations from a re-analysis of the deposited data

How the results depend on the processing

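The count of lowered subunit genes was 33 with RLE or upper-quartile factors, with DESeq2, without a count filter and when 3 libraries had to reach 10 CPM. It was 32 in thinned libraries (Atp5g1 lost its call at adjusted p = 0.0812) and 31 to 33 with a library left out, with medians of -0.84 to -0.76 and 6049 to 6479 genes called in all. Same-numbered del and fl libraries showed no shared deviation (correlations 0.083, -0.039 and -0.02). Pairing by number was thus not seen, but with 3 libraries per group these values cannot exclude it. With the replicate number as a block the count was 32, 6510 genes were called in all, and Cox5b alone of the 35 lost its call (adjusted p = 0.0645). Cox5b also missed the threshold without del replicate 1 or 2 or any one fl library (adjusted p = 0.0621 to 0.0995). Upper-quartile factors moved the median of all genes to -0.13 and that of the subunits to -0.94. Removing the length and GC trend had the largest effect of the alternatives run: 19 subunit genes were called and the median moved to -0.42. Cox5b (0.20), Cox6a1 (0.17), Atp5h (0.32) and Atp5g2 (0.00154) turned positive without passing, and 11 further calls were lost. With the transcript of median length, 28 were called with a median of -0.69, and none changed sign. Shares within the c ring had no stable sign: with a library left out, del minus fl ran over -0.631 to 1.31 percentage points for Atp5g1, -0.109 to 0.743 for Atp5g2 and -1.65 to 0.138 for Atp5g3. Atp5g1 and Cox7c had the fewest counts, 77 and 79 in del replicate 2.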
